A study of Mus musculus with 2 samples.

Results

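The genes described here are 10 parts of the oxygen-sensing pathway of the hypoxia-inducible factors (HIF): the factor subunits Hif1a and Epas1, the prolyl hydroxylases Egln1, Egln2 and Egln3, the ubiquitin ligase component Vhl, and the hypoxia targets Bnip3, Bnip3l, Vegfa and Ddit4. They were taken by name from the 19938 genes that the array measures with a transcript cluster of a single gene symbol, where a transcript cluster is the set of probes that reads 1 transcript. All 10 were found, through 12 clusters, since Bnip3 and Bnip3l have 2 clusters each. The brightest cluster stands for the gene, and the other cluster is given beside it.

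RNA came from tdTomato-positive cardiac neural crest cells sorted from mouse hearts at stage E14.5 of gestation, on a C57BL/6 background. There was 1 array of the genotype Adam19+/+; Wnt1-Cre; R26tdTomato/+ and 1 array of Adam19-/-; Wnt1-Cre; R26tdTomato/+, so both groups carried the Cre driver and a single copy of the reporter. Wnt1-Cre marks the neural crest lineage and not a cell state, so smooth muscle, valve mesenchyme, neurons and glia of that lineage were read as a mixture. Adam19, the membrane metalloprotease that the genotypes differ in, is written as -/- in the labels with no tissue restriction. The number of embryos behind each array is not stated in the sources used here. Each group is 1 sample, so no test between genotypes was possible, and every difference is the log2 signal of Adam19-/- minus that of Adam19+/+ on these 2 arrays.

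Cells sense oxygen through the stability of the HIF alpha subunits. In the presence of oxygen, the prolyl hydroxylases modify HIF alpha, the VHL protein binds the modified subunit and marks it for destruction by the proteasome. When oxygen is low, the alpha subunit persists, pairs with ARNT and binds short DNA elements at its target genes, among them genes of glycolysis, blood vessel growth and mitophagy, the removal of mitochondria. The step from oxygen to HIF is one of protein stability, so transcript levels of Hif1a and Epas1 do not measure HIF activity. Egln3 is both a sensor and a HIF target. The embryonic outflow tract, where cardiac neural crest cells settle, is a known site of low oxygen and of HIF-dependent remodelling.

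The core of the element that HIF binds reads ACGTG or GCGTG. The 250 bases before the start of transcription were searched for both on both strands, in RefSeq promoters of GRCm38.p6, and both readings of a palindromic CACGTG were counted as 1 site. Promoters were at hand for 8 of the 10 members, and none for Epas1 and Bnip3l. At least 1 site was present in 38.6% of all 32851 promoters and in 56.7% of the 10567 promoters of genes above the expression floor described below. The promoters of Bnip3 and Egln3 are shown because these genes had the largest differences between the arrays. Both lie on the minus strand of the chromosome and are printed 5′ to 3′ along the gene, with each match in capitals (CACGC and CACGT are matches on the opposite strand).
Bnip3, chr7:138909507-138909756, minus strand: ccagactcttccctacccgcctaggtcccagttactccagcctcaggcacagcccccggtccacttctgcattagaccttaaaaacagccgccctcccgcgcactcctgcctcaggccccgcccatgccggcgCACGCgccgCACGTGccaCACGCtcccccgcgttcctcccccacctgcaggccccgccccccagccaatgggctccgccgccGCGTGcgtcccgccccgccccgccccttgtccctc
Egln3, chr12:54203875-54204124, minus strand: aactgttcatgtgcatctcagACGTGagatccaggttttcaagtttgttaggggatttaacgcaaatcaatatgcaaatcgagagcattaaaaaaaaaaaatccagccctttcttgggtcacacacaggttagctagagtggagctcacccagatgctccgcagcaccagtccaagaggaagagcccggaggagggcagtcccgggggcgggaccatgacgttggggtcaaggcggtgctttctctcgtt

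The Bnip3 promoter held 4 sites. They were a CACGTG palindrome that begins 108 bases before the start, flanked by opposite-strand matches at 117 and 99 bases, and a further GCGTG at 35 bases. At least 4 sites were found in 1.66% of all promoters and in 3.34% of those of genes above the floor. Every match contains a CG, so the count can depend on CG content, and the Bnip3 window held 24 CG pairs against a median of 16 for genes above the floor. This dependence was not measured, and the Egln1 window held 51 CG pairs with 2 sites. The Egln3 promoter held 1 site, an ACGTG at 229 bases, and 10 CG pairs. Sites were not limited to the members that differed: Egln2 held 4 at its upstream start, Egln1, Ddit4 and Hif1a held 2 each, and Vhl held none. Vegfa held none at its upstream start and 2 at its other start. No match in a window says only that these letters are not in it, and HIF elements are also known far from promoters and in introns. For comparison, the ACGTG matches of the 5 members with small differences that hold any are shown with the bases around them, again with the match in capitals. Hif1a holds 2 such sites, of which the first is a CACGTG palindrome shown in 1 of its readings, and the Vegfa match is on the opposite strand.
Ddit4, chr10:59951943-59951967, minus strand: aacgttgcgaACGTGcgcccggtgc
Egln1, chr8:124949308-124949332, minus strand: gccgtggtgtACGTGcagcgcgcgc
Egln2, chr7:27166836-27166860, minus strand: cctcctgtcaACGTGcggttcgcgc
Hif1a, chr12:73907723-73907747, plus strand: acagacaagcACGTGagcggggcag
Hif1a, chr12:73907787-73907811, plus strand: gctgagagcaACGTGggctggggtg
Vegfa at its other start, chr17:46025360-46025384, minus strand: agtgcgtgccCACGTcagagagcaa

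Among the members, Bnip3 and Egln3 were higher on the Adam19-/- array, and the other 8 differed by little. The median difference of the 10 members was 0.11 on the log2 scale, against 0.04 for all 10122 genes above the expression floor. This floor was the median of the genes' mean signals, 8.01, which a gene passed with at least 1 array above it. All 10 members were above it on both arrays. A difference above 0 was seen for 9 of the 10, where 65.2% of all genes above the floor were higher, so that direction alone says little. At the threshold of 1.2-fold, 2 of the 10 members were higher, where 4.06% of all genes were. At 1.5-fold 1 member was higher, where 0.148% of all genes were. No member was lower by 1.2-fold, where 1.13% of all genes were. The error within the arrays was read from the 583 genes with at least 2 clusters above the floor. The differences from 2 clusters of such a gene lay a median of 0.05 apart, and 95% lay within 0.24. Only Bnip3 and Egln3 among the members differed by more than 0.24. The middle 95% of all genes above the floor ran from -0.20 to 0.30. The 0.24 bounds gaps between clusters of 1 gene, not the difference of a gene from 0 or the contrast of 2 genes. It holds no variation between embryos or sorts, so a value inside or past it is description only.

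**Figure D1:**
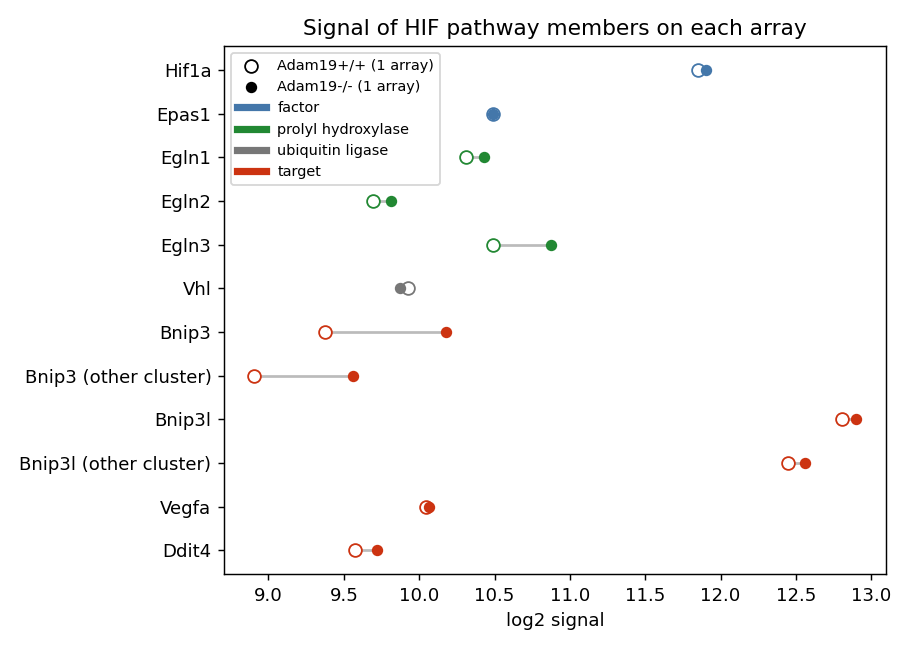
Log2 signal of each member on the Adam19+/+ array (open circle) and the Adam19-/- array (filled circle), 1 array each, coloured by role; the other clusters of Bnip3 and Bnip3l have rows of their own. The gap is widest for Bnip3, at 9.37 and 10.18, and next for Egln3, at 10.49 and 10.87, while Epas1 has nearly the same value on both arrays.

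The genotype and the cell types were checked on the same arrays. Adam19 itself was 3.60-fold lower on the Adam19-/- array, at 11.62 and 9.77. Of 10 measured markers of neural crest derivatives, 9 were above the floor, 4 higher and 5 lower on the Adam19-/- array, and Msx1 was below it. The largest differences among them were 0.57 for the mesenchymal factor Sox9, at 10.65 and 11.23, and 0.40 for Twist1, at 9.05 and 9.45, so 2 of the 9 were past 1.2-fold, where 4.06% of all genes were higher by that much. The smooth muscle genes Acta2, at 13.74 and 13.62, and Tagln, at 12.11 and 11.96, were slightly lower, and the glial factor Sox10 was at 10.45 and 10.50. The summed linear signal of the 10 was 41276 in the Adam19+/+ and 40010 in the Adam19-/- sample, and thus slightly lower. Their median difference was -0.005. Markers of the other cell types that a sort could carry had higher sums on the Adam19-/- array. Beside their counts, 51.7% of all genes were higher with no floor, and 65.2% of those above the floor. Of 16 macrophage and leukocyte markers, 15 were higher and 1 equal, with sums of 2404 and 3204. Of these, 4 were above the floor, at differences of 0.68 for Laptm5, 0.65 for C1qb, 0.56 for Fcer1g and 0.05 for Cd68, and the first 3 were past 1.2-fold. C1qb, at 7.98 and 8.63, and Fcer1g, at 7.75 and 8.32, passed the floor on the Adam19-/- array alone. The other 12, Ptprc, Csf1r and Adgre1 among them, were below the floor on both arrays. Of 14 cardiomyocyte markers, 11 were higher and 3 lower, with sums of 8628 and 9413, and 5 of the 12 above the floor were higher by 1.2-fold, led by Myl7 at 0.78, Pln at 0.54, Myh6 at 0.39 and Tnni1 at 0.30. Myh6, at 7.64 and 8.03, passed the floor on the Adam19-/- array alone. The 3 lower were Tnnt2, the brightest of the list, at 11.12 and 11.02, Tnnc1 at a difference of -0.22 and Tnni3 at -0.03. Endothelial and endocardial markers had sums of 6084 and 6400, with 7 of 12 higher, 3 lower and 2 equal. Past 1.2-fold were Nfatc1, at 0.49, and Ramp2, at 0.30, followed by Egfl7 at 0.23 and Kdr at 0.22, while Pecam1 and Cdh5 were below the floor on both arrays. The 3 lower were Npr3, the brightest of the list, at 11.28 and 11.16, Esam at a difference of -0.14 and Emcn at -0.09. The 8 measured erythroid markers had sums of 2633 and 3137, with 5 higher and 3 lower. The 2 above the floor were the embryonic globin genes Hbb-y, at a difference of 0.29, and Hba-x, at 0.36, both past 1.2-fold, while Alas2 and Gata1 were below it. Epicardial markers had sums of 2970 and 3301, with 5 of 10 higher, 3 lower and 2 equal. Tcf21 was at 0.57, Tbx18 at 0.21, Aldh1a2 at 0.20 and Krt18 at -0.23, and Wt1 was below the floor. The sums of all 5 of these other cell types were thus higher on the array where Bnip3 and Egln3 were higher, but unevenly. The ratio of the sums ran from 1.05 for the endothelial list to 1.33 for the macrophage list, with no sum over all genes set beside them. The epicardial count, 5 of 10 higher, was near the 51.7% of all genes. The part of these cell types in the higher Bnip3 and Egln3 signals of the Adam19-/- array was not tested. The Y-linked genes Uty, at 9.03 and 7.61, and Kdm5d, at 8.82 and 7.65, were lower on that array, so the sex of the embryos and the genotype cannot be told apart. In sorted bulk RNA a change in the share of a cell type and a change in RNA per cell cannot be told apart.

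The HIF subunits had almost the same signal in both samples. Hif1a, which encodes the broadly expressed alpha subunit, was at 11.85 in the Adam19+/+ and 11.90 in the Adam19-/- sample. Its difference of 0.05 exceeded that of 55.1% of the genes above the floor, so it lay near the middle of all genes. Epas1, which encodes HIF-2 alpha and is best known from endothelium and from catecholamine-producing cells, was at 10.49 on both arrays, a difference of 0.005. That value was under the gene median of 0.04, and its sign turned when the arrays were normalised or centred, with values down to -0.03. The 2 subunits differed from each other by 0.05 in this difference.

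The 3 prolyl hydroxylases were all higher on the Adam19-/- array, with Egln3 apart from the others. Egln3 encodes PHD3, the hydroxylase whose transcript is itself strongly induced by HIF. Its signal was 10.49 in the Adam19+/+ and 10.87 in the Adam19-/- sample, a difference of 0.38 or 1.30-fold. It had the 111th largest increase of the 10122 genes, higher than 98.9% of them. Egln1 encodes PHD2, the hydroxylase that sets HIF-1 alpha levels in most cells, and was at 10.31 and 10.43, a difference of 0.12 or 1.09-fold. Egln2 encodes PHD1, which is not known as a strong hypoxia target, and was at 9.70 and 9.81, also a difference of 0.12. Egln3 thus exceeded Egln1 and Egln2 by 0.26 each. The 0.24 that bounds 95% of the gaps between clusters of 1 gene is no bound on such contrasts between genes, which were not tested. The differences of Egln1 and Egln2 themselves were smaller than 0.24.

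Vhl was the single member with a lower signal on the Adam19-/- array. It encodes the protein that recognises hydroxylated HIF alpha within a cullin-RING ubiquitin ligase. Its signal was 9.93 in the Adam19+/+ and 9.88 in the Adam19-/- sample, a difference of -0.05, and 17.8% of genes lay below it. This is inside the gap between clusters of a gene.

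Bnip3 differed most among the members. It encodes a mitophagy receptor of the outer mitochondrial membrane that binds LC3-family proteins and is a classical HIF-1 target. The brightest cluster was at 9.37 in the Adam19+/+ and 10.18 in the Adam19-/- sample, which corresponds to linear signals of 663 and 1157. The difference was 0.80, or 1.75-fold, and only 2 of the 10122 genes had a larger increase. Those above it were Cntn4 at 0.88 and Wfdc18 at 0.84, and those next below it were the atrial myosin gene Myl7 at 0.78, Ociad2 at 0.69 and the leukocyte gene Laptm5 at 0.68. Around Egln3 stood Phlda2, Gnb1l and Tafa1 on the higher side, each at 0.38, and Smad9, Bmper and Fzd6 on the lower side, each at 0.38. Nearness in this order reflects 2 arrays alone.

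The other cluster of Bnip3 was at 8.91 and 9.56, a difference of 0.66 or 1.58-fold, which would rank 7th in place of 3rd. Their differences lay 0.15 apart, inside the 0.24 bound, and both were past 1.5-fold. They were not equivalent by position. Cluster identifiers on this array follow chromosome order, and 96.9% of the 21695 clusters with a known chromosome match the commonest chromosome of the 4 clusters on either side. All 8 neighbours of the dimmer Bnip3 cluster belong to genes on chromosome 7, where Bnip3 lies. All 8 neighbours of the brightest cluster belong to genes on chromosome 14. The value of 0.66 is the one from the cluster among genes of Bnip3's own chromosome. Whether the brightest cluster reads a copy of the Bnip3 sequence was not tested, since no probe sequences were used here.

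Bnip3l, the paralogue of Bnip3 also called Nix, showed the same arrangement of clusters and a small difference. Its product removes mitochondria from maturing red cells and also responds to hypoxia. The brightest cluster was at 12.80 in the Adam19+/+ and 12.90 in the Adam19-/- sample, a difference of 0.09. The neighbours of this cluster lie on chromosome 12, where the gene table lists a pseudogene named Bnip3l-ps, whereas Bnip3l lies on chromosome 14. The other cluster, with 7 of its 8 neighbours on chromosome 14, was at 12.45 and 12.56, a difference of 0.11. The clusters thus gave nearly the same value. Bnip3 exceeded Bnip3l by 0.71 with the brightest clusters and by 0.54 with the clusters among genes of their own chromosomes.

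Vegfa and Ddit4, both textbook hypoxia targets, had smaller differences than Bnip3. Vegfa encodes the main growth factor of blood vessels and was at 10.04 in the Adam19+/+ and 10.07 in the Adam19-/- sample. Its difference of 0.02 was under the gene median and turned to -0.02 when the arrays were normalised or centred. Ddit4 encodes REDD1, an inhibitor of mTORC1 that is also induced by glucocorticoids, by p53 and by the stress factor ATF4. It was at 9.57 and 9.72, a difference of 0.15 or 1.11-fold, higher than 83.5% of genes but inside the bound between clusters. The 4 targets therefore ran from 0.02 to 0.80, and Bnip3 exceeded Vegfa by 0.78, or by 0.64 with the Bnip3 cluster among genes of its own chromosome.

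**Figure D2:**
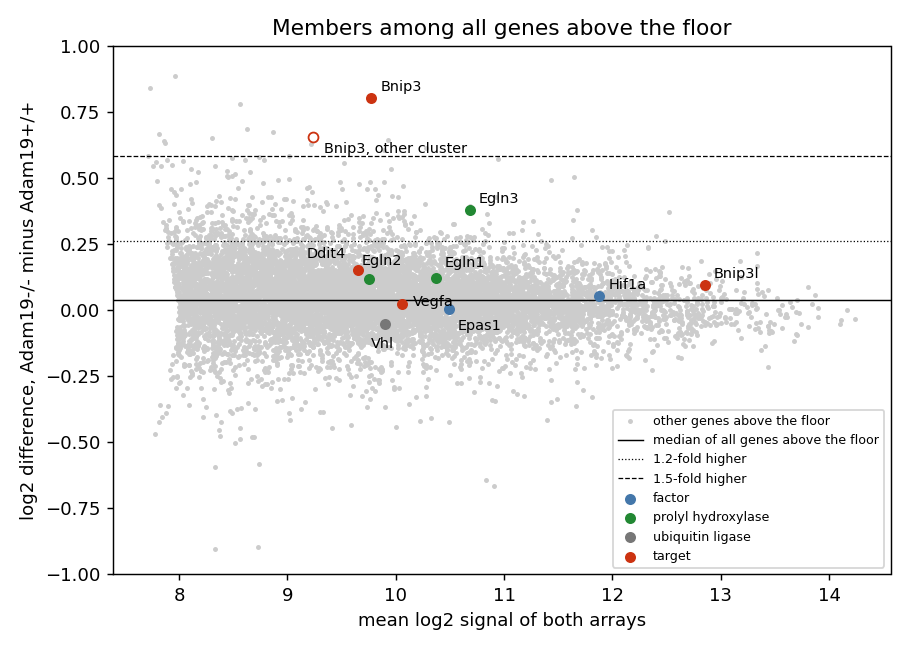
Difference between the arrays (log2, Adam19-/- minus Adam19+/+) against the mean log2 signal of both arrays for the genes above the floor, with members coloured by role and 4 genes outside the axis not drawn. Bnip3 (0.80, and 0.66 for its other cluster, open circle) and Egln3 (0.38) lie above the 1.2-fold line, and the other 8 members lie in the body of the cloud around the median of 0.04.

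Of 21 other genes of the HIF machinery, 20 were measured and 17 were above the floor, 9 higher against 8 lower where 65.2% of all genes were higher, and their median was 0.02. None of the 17 was past 1.2-fold, a count near the background, since 4.06% of all genes were higher and 1.13% lower by that much. The largest differences were 0.15 for Elob, a subunit of the VHL ligase, and 0.14 each for Hif1an, the asparaginyl hydroxylase that blocks HIF activity, for Rbx1, the RING subunit of the ligase, and for Hif3a, which can restrain HIF-1. The values of Hif1an, for instance, were 9.35 and 9.49. The brightest cluster of Rbx1 has neighbours on another chromosome than the gene, and its other cluster gave 0.20.

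Other known HIF targets, outside the glycolysis list below, differed unevenly. They share Cited2 with the HIF machinery list, Flt1 with the VEGF family list and Vldlr with the ATF4 list. Of 38 listed, 27 were above the floor, 18 higher against 9 lower where 65.2% of all genes were higher, so the direction was near the background. Their median was 0.07. Over all 37 measured, 26 were higher, 10 lower and 1 equal, where 51.7% of all genes were higher with no floor. By 1.2-fold, 4 of the 27 were higher, where 4.06% of all genes were. Ak4, a mitochondrial adenylate kinase, was at 9.81 and 10.23, a difference of 0.43. That cluster too has neighbours on another chromosome than Ak4, and the cluster from the gene's own chromosome was at 7.80 and 8.11, a difference of 0.32. This other Ak4 cluster was above the floor of 8.01 on the Adam19-/- array alone. Fam162a, which encodes a mitochondrial protein induced by HIF-1, was at 9.85 and 10.20, a difference of 0.35. Edn1, which encodes the vasoconstrictor endothelin-1, was at 8.39 and 8.72, a difference of 0.34, and the transferrin receptor gene Tfrc was at 7.84 and 8.11, a difference of 0.27, and so passed the floor on the Adam19-/- array alone. A stricter floor, at the 75th percentile, left 2 members of this list higher by 1.2-fold. The lowest member of the list was Lox, which encodes the collagen cross-linking enzyme lysyl oxidase, at 12.48 and 12.25, a difference of -0.23.

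Glycolysis and pyruvate handling showed the highest median of the 8 lists set beside the members. Of 19 genes listed, 16 were measured and all of these were above the floor, 14 higher against 2 lower where 65.2% of all genes were higher, and their median was 0.19 beside 0.04 for all genes. By 1.2-fold, 4 of the 16 were higher, where 4.06% of all genes were. Slc16a3, the lactate exporter MCT4, was the single member of any of these 8 lists past 1.5-fold, at 9.98 and 10.59, a difference of 0.61. Pdk1, the kinase that keeps pyruvate out of mitochondria, was at 8.25 and 8.77, a difference of 0.52. Pfkl, the liver-type phosphofructokinase, was at 9.75 and 10.18, a difference of 0.43, and the glucose transporter gene Slc2a1 was at 11.46 and 11.80, a difference of 0.34. The clusters of these 4 genes lie among genes of their own chromosomes. This was not examined for the rest of the list, so its median may include clusters placed on another chromosome. The 2 lower genes were Hk1, the brightest of the list, at 13.55 and 13.33, a difference of -0.22, and Aldoc at -0.06. Several genes of the list were known to be higher when it was written, so its median is no independent support for Bnip3 or Egln3.

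Of 19 mitophagy genes other than Bnip3 and Bnip3l, 16 were above the floor, 13 higher against 3 lower where 65.2% of all genes were higher, and their median was 0.08. None of the 16 was past 1.2-fold, which is near the background of 4.06% higher and 1.13% lower. The largest differences were those of Ulk1, the kinase that starts autophagy, at 9.96 and 10.20 (0.24), and of Pink1, the kinase that marks damaged mitochondria, at 9.43 and 9.64 (0.21). The receptor gene Bcl2l13 was at 0.12 and Map1lc3b, which encodes the LC3 protein that receptors bind, at 0.10. The VEGF family beside Vegfa had 8 of 9 genes above the floor, 4 higher against 4 lower where 65.2% of all genes were higher, and their median was 0.02. By 1.2-fold, 1 of the 8 was higher, where 4.06% of all genes were. Vegfc, a ligand of lymphatic vessels, was at 7.73 and 8.18, a difference of 0.45, and was under the floor in Adam19+/+ cells. Kdr, the main VEGF receptor, was at 0.22. Vegfb was at 0.12, and Pgf, the placental growth factor gene, was lower, at 9.15 and 8.94, a difference of -0.21.

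Lists for the other inputs of Ddit4 had medians from -0.03 to 0.05, beside 0.04 for all genes above the floor. The part of these inputs in the difference of Ddit4 was not tested. The ATF4 and stress response list had 8 of 12 genes above the floor, 3 higher against 5 lower where 65.2% of all genes were higher, and their median was -0.03. By 1.2-fold, 1 of the 8 was higher and 1 lower, where 4.06% and 1.13% of all genes were. Ppp1r15a, which encodes a phosphatase subunit that ends the stress response, was at 9.92 and 9.55, a difference of -0.37. Asns, the asparagine synthetase gene, was at 0.27, Atf4 at -0.14 and Ddit3 at -0.13. The glucocorticoid list had 6 of 8 above the floor, 3 higher against 3 lower beside the same 65.2%, and their median was 0.05. By 1.2-fold, 1 of the 6 was higher, where 4.06% of all genes were. Its largest difference was that of Tsc22d3 at 0.27, followed by Fkbp5 at 0.17, Per1 at -0.16 and Klf9 at 0.11. The p53 list had 6 of 12 above the floor, 3 higher against 3 lower beside the same 65.2%, and their median was 0.01. Its largest differences were those of Perp at -0.15, Sesn1 at -0.11, Plk2 at 0.08 and Mdm2 at 0.07.

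**Figure D3:**
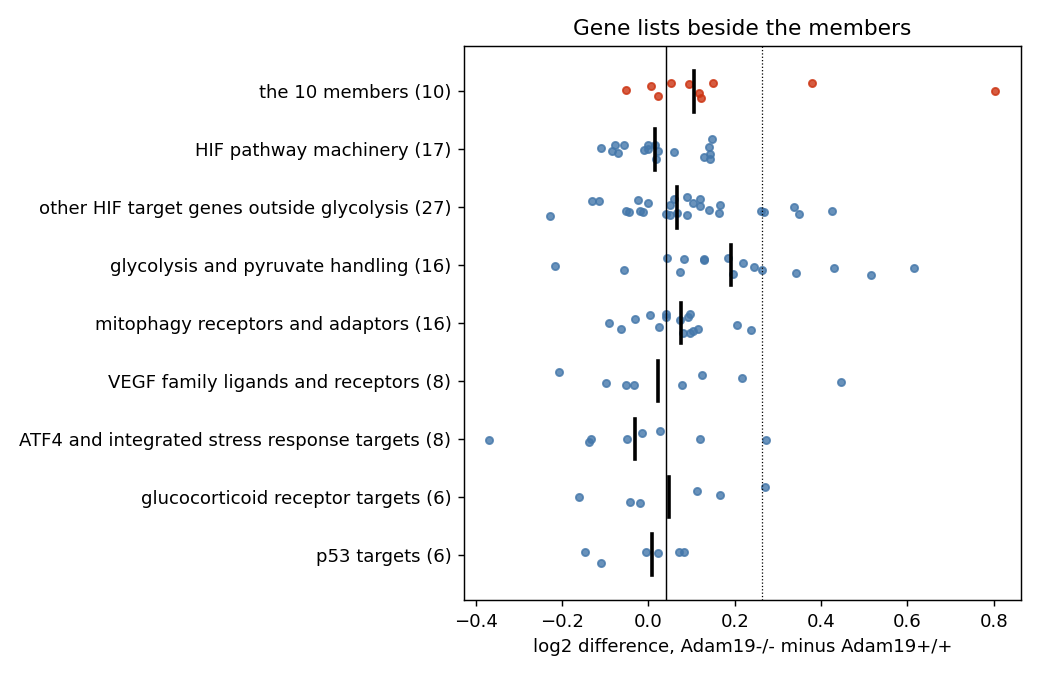
Difference between the arrays (log2, Adam19-/- minus Adam19+/+) for each gene above the floor in the 10 members (top, red) and in the 8 gene lists beside them (blue), with the number of genes in parentheses and a black bar at each median; the thin line is the median of all genes, 0.04, and the dotted line 1.2-fold higher. The glycolysis list has its median at 0.19, and the HIF machinery list is centred at 0.02.

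**Figure D4:**
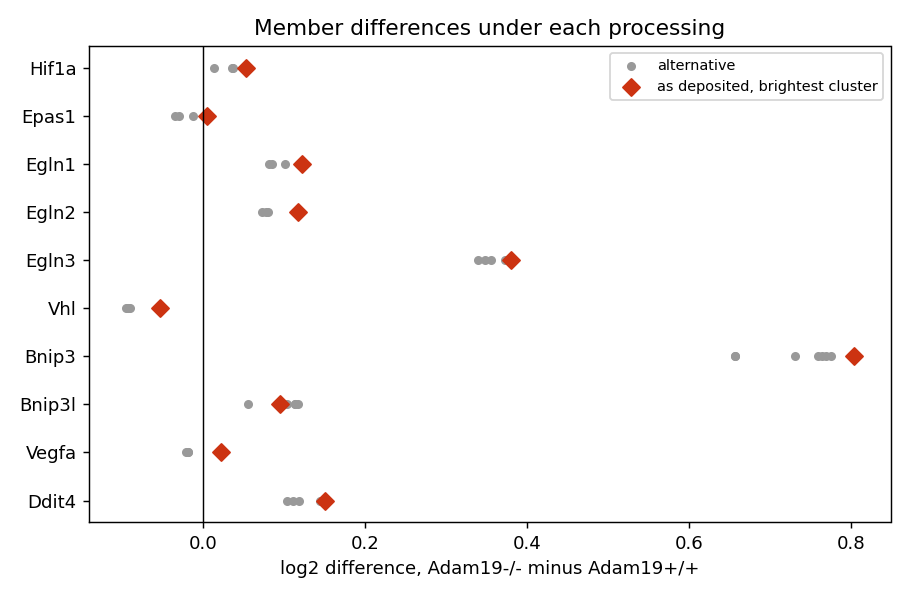
Difference of each member (log2, Adam19-/- minus Adam19+/+) as deposited with the brightest cluster (red diamond) and under each alternative processing (grey points). Bnip3 stays between 0.66 and 0.80 and Egln3 between 0.34 and 0.38, whereas the points of Epas1 and Vegfa fall on both sides of 0.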

How the data were processed

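RNA of 2 sorted cell samples was measured on the Affymetrix Mouse Gene 1.0 ST array, 1 array per genotype. The values are log2 signals per transcript cluster, as deposited by the authors for 28853 clusters. How background, normalisation and probe summary were handled is not given in the labels or other sources used here. The base of the logarithm was read from the range: the highest value, 14.52, stands for 23484 as log2, but for 2.02e+06 as a natural logarithm, more than a scanner records. Clusters were named through the 2016 platform annotation and the symbols of a RefSeq gene table (GRCm38.p6). Of these, 21789 had 1 symbol, 1621 several and 5443 none, and only the first were used. No value was normalised again. Named genes were the 10 members, the label check Adam19, the 4 largest absolute differences above the floor in each list and marker list, any member past 1.5-fold, and the 3 genes on either side of Bnip3 and Egln3. Some cell type markers (Sox10, Pecam1, Cdh5, Wt1, Alas2, Gata1, Msx1, Ptprc, Csf1r and Adgre1), Lox and the Y-linked genes were picked after their values were seen. So were the lower cardiomyocyte and endothelial markers and the lower genes of the glycolysis list. Predicted genes and clones were not named. The members and lists were chosen with earlier results of these data known. Steps were checked on simulated data. The tools were Python 3.11.15, pandas 2.3.3, numpy 2.4.6, matplotlib 3.10.9 and statsmodels 0.14.6. The number of arrays limits the precision.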

Additional observations from a re-analysis of the deposited data

How the results depend on the processing

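Alternatives were quantile normalisation, centring on a lowess curve or on the median, the mean of a gene's clusters, 32 added to the linear signal, a floor at the 75th percentile, no floor, and, chosen after seeing the data, leaving out Bnip3 and Bnip3l clusters whose neighbours lie on another chromosome. Under the 6 of these that give a difference other values or clusters, 2 of the 10 members stayed higher by 1.2-fold and 1 by 1.5-fold, and the members' median ran from 0.07 to 0.12. With quantile normalisation and both kinds of centring, 7 members were higher instead of 9, as Epas1 and Vegfa turned negative, and the share of all genes higher was 55.5% with quantile normalisation and 50.3% with lowess centring instead of 65.2%, while median centring leaves as many genes higher as not by construction. The share of all genes higher by 1.2-fold was 2.68% after quantile normalisation, 2.22% after lowess centring, 2.42% after median centring and 2.30% with the higher floor. With the higher floor, 0.0779% of genes were higher by 1.5-fold, and 2 HIF targets outside the glycolysis list, 0 VEGF family genes and 0 glucocorticoid targets were higher by 1.2-fold. The count for ATF4 targets went from 1 to 0 with quantile normalisation and both kinds of centring, and that for glucocorticoid targets to 0 with these and with 32 added. No paired analysis was possible because each genotype has 1 array, and for the same reason no replicate could be left out.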
